A study of Mus musculus with 12 samples.

Results

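The 52 genes described here encode the glucose, lactate and pyruvate transporters, the hexokinases, the enzymes of glycolysis, the lactate dehydrogenases, the enzymes that pass pyruvate into the mitochondrion, the enzymes of the tricarboxylic acid (TCA) cycle and 4 enzymes of the pentose phosphate pathway. The rule lists them by name and uses no measured value. They were taken from the 31272 gene names in the files, and each was present and followed across the groups by pathway and by isozyme. The libraries are labelled as hematopoietic stem cells (HSCs), the bone marrow cells from which all blood lineages derive, from wild-type (WT) mice, a label that the marker values given with the library checks do not bear out. All 12 libraries were polyadenylated RNA libraries of WT bone marrow cells, 3 in each of 4 groups named Ctrl, IR, Ab_IR and L_IR. IR stands for irradiation, and the study's methods describe sublethal gamma irradiation of the whole body with a cobalt source. The irradiated groups were sampled 3 days after irradiation. The study defines HSCs as lineage-negative, Sca-1 and c-Kit positive cells that lack Flt3 and CD34, and its lineage antibodies bind T cells, B cells, granulocytes, monocytes and erythroid cells, which such a gate would remove. Ctrl carries no irradiation in its name, and IR, Ab_IR and L_IR all carry it. The labels give Ab and L with no further word, so both names are used as they stand, and no agent or dose is attached to them. The age of the mice and the number of mice behind a library are not given in the sources used here. Nothing in the labels states that the 3 replicates of a group were separate mice, so the p-values measure the spread between these libraries, which may be technical.

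Glycolysis splits glucose into pyruvate and yields ATP without oxygen, lactate dehydrogenase turns pyruvate into lactate, and the pyruvate dehydrogenase complex instead sends it into the TCA cycle, whose products feed mitochondrial respiration. The pentose phosphate pathway branches off at glucose 6-phosphate and makes NADPH, which supports antioxidant defence, and ribose for nucleotides. Quiescent HSCs are known for a high reliance on glycolysis with low mitochondrial respiration, and several steps of the pathway exist as isozymes that differ in regulation and in the tissues that use them.

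Values are FPKM, fragments per kilobase of transcript scaled to the size of the library, as deposited, which correct for gene length and allow levels of different genes to be set side by side. The depth behind them is unknown. The FPKM of a library summed to between 344338 and 405123, and between 11467 and 12167 genes reached 1 FPKM. The label HSC was checked against 12 markers, whose summed level lay between 83.49 and 89.73 FPKM in the Ctrl libraries, 71.17 and 78.75 in IR, 79.72 and 86.69 in Ab_IR and 86.56 and 87.39 in L_IR. Of these 12 markers, 5 in the Ctrl group, 7 in IR, 4 in Ab_IR and 4 in L_IR lay under 1 FPKM in every library of the group, among them Fgd5, Hoxb5, Mecom and Slamf1, all defining HSC markers, and Kit, a gene of the sorting gate, read 25.4, 21.3 and 23.7 FPKM in Ctrl and 6.92, 7.0 and 6.70 in IR. Ly6a (Sca-1), also of the gate, lay the other way, at 25.9, 41.1 and 38.2 FPKM in Ctrl and 53.7, 60.5 and 61.5 in IR. Markers of maturing blood cells, which the gate would remove, were far higher, so the libraries are named here by their groups and not by a cell type. The summed level of 11 erythroid markers was 3143 to 3756 FPKM in Ctrl libraries, 555 to 562 in IR, 3288 to 3440 in Ab_IR and 1672 to 1726 in L_IR, and that of 12 neutrophil and monocyte markers was 10886 to 12659, 16221 to 16488, 11853 to 12431 and 8791 to 9006. Markers of B and plasma cells, 9 in all, summed to 10058 to 13272, 17440 to 18657, 17875 to 18503 and 25604 to 26476 FPKM. The 8 megakaryocyte and platelet markers summed to 63.9 to 77.5 FPKM in Ctrl, 16.0 to 18.3 in IR, 155 to 159 in Ab_IR and 97.3 to 103 in L_IR, the 7 stroma and bone markers to 163 to 204, 10.4 to 11.2, 51.1 to 57.1 and 49.7 to 51.7, and the 9 macrophage markers to 69.6 to 77.7, 45.9 to 52.3, 73.3 to 80.4 and 66.1 to 73.3. The first Ctrl library stood apart, with 44.1% of its rows at 0 against 24.7% to 27.3% in the others, and 7 of the 52 genes lay there under 75% of the mean of the other Ctrl libraries (Mpc2, Ldhb, Mpc1, Sdhc, Sdhb, Taldo1 and Mdh2). Heart muscle transcripts such as Nppa were present in the other 2 Ctrl libraries and in all IR libraries (51.2, 63.9 and 60.7 FPKM) and were at or near 0 in Ctrl replicate 1, Ab_IR and L_IR, so this split and the groups cannot be told apart in comparisons of IR with Ab_IR or L_IR. Ctrl alone held both levels, so a model with the split as a term would rest on Ctrl replicate 1 by itself, and its values support nothing below. For comparisons with Ctrl, values without that library are given beside the genes named whose call or direction it decided.

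IR against Ctrl asks which of these genes differ 3 days after irradiation. Of the 51 genes that reached 1 FPKM in 3 libraries, 22 rose and 7 fell in IR at an adjusted p under 0.05 (limma on log2(FPKM + 1), Benjamini-Hochberg adjustment over all genes tested), beside 43.1% of all 12072 genes tested, 17.5% higher and 25.5% lower. The gene left out was Aldoc, a minor aldolase at 0.21 to 0.82 FPKM. A change of more than 2-fold was reached by 5 of the 29, 4 higher and 1 lower, beside 7.6% of all genes (3.03% higher, 4.57% lower). The groups did not overlap for 37 of the 51, beside 58.1% of all genes. The median log2 difference of the 51 genes was 0.223, and over all genes tested it was -0.0461. In these bulk libraries fewer cells of a type and less RNA per cell cannot be told apart. Without Ctrl replicate 1, 25 of the 51 rose and 12 fell, and the calls over all 12072 genes went from 5199 to 7222. On this scale a difference of mean log2(FPKM + 1) understates the change of a gene of low level.

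Most enzymes of glycolysis rose in IR, and 1 phosphofructokinase gene fell. Of the 5 genes of lower glycolysis, from Gapdh to Pkm, 5 rose. Of 6 tested genes of upper glycolysis, from Gpi1 to Tpi1, 5 rose and Pfkm fell, and of the 2 lactate dehydrogenases Ldha rose. As a description only, the 9 genes Gpi1, Aldoa, Tpi1, Gapdh, Pgk1, Pgam1, Eno1, Pkm and Ldha, a grouping made after their values were seen that leaves out phosphofructokinase, Aldoc and Ldhb, summed to 1245, 1346 and 1361 FPKM in Ctrl and to 2232, 2219 and 2234 in IR. Gpi1, which converts glucose 6-phosphate to fructose 6-phosphate, read 127, 123 and 132 FPKM in Ctrl and 259, 255 and 252 in IR, 2.01-fold higher (log2 difference 1.0, SE 0.0605, adjusted p = 7.98e-05). Eno1, the enolase of most tissues, read 98.1, 117 and 119 FPKM in Ctrl and 213, 216 and 213 in IR (log2 difference 0.94, SE 0.0892, adjusted p = 4.57e-04). The 2 groups did not overlap for either gene. Aldoa, the main aldolase, read 165, 188 and 189 FPKM in Ctrl and 331, 328 and 329 in IR (log2 difference 0.86, SE 0.0753, adjusted p = 3.21e-04). The other 6 rose by 0.49 to 0.84 on the log2 scale. Among them Pgam1, phosphoglycerate mutase, rose 1.79-fold, and Pkm, the pyruvate kinase of most tissues outside liver and red cells, rose 1.72-fold, from 209 ± 3.97 to 361 ± 2.23 FPKM (SD, n = 3). Ldha, which makes lactate, had the smallest change of the 9, from 207 ± 17.1 to 289.6 ± 1.37 FPKM (SD, n = 3; log2 difference 0.49, SE 0.0791, adjusted p = 0.00368). Gapdh read only 9.91, 11.2 and 12.8 FPKM in Ctrl and 19.3, 18.1 and 18.8 in IR, well under its neighbours in the pathway. Gapdh has many processed pseudogenes, so its level is uncertain where the authors' counting shared reads with them. The counts of upper and lower glycolysis were unchanged under every other scaling tried, and with any 1 library left out 5 of 5 and 4 or 5 of 6 rose. Of the 12 neutrophil and monocyte markers 6 were higher and 0 lower in IR than in Ctrl, and of 7 tested B and plasma cell markers 5 were higher and 1 lower. The part of these markers in the rise was not tested.

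**Figure D1:**
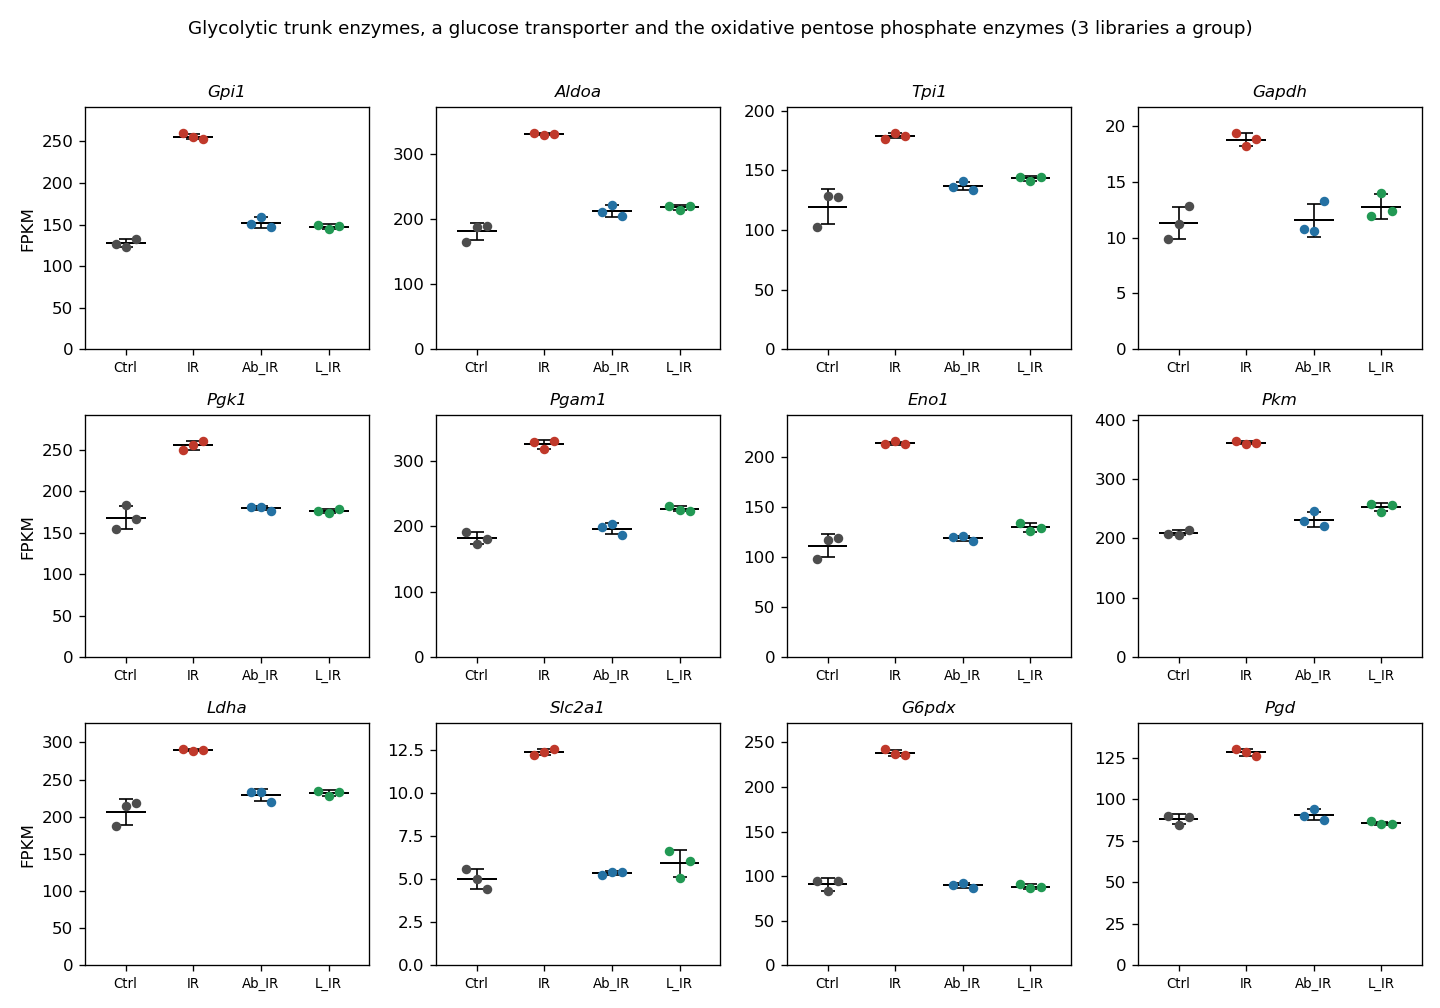
FPKM of 12 genes in each library (points), with the group mean (line) and SD (bars), 3 libraries a group, each panel with its own linear axis from 0. The IR libraries lie above every library of Ctrl, Ab_IR and L_IR in all 12 panels, from Gpi1 at 252 to 259 FPKM in IR to Slc2a1 at 12.2 to 12.6.

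Phosphofructokinase, the committing step of glycolysis, changed in isozyme makeup. Pfkm, the muscle type, was the largest difference of the 51 genes. It read 26.3, 23.3 and 24.8 FPKM in the Ctrl libraries, 6.80, 6.83 and 6.56 in IR, 24.2, 25.2 and 23.1 in Ab_IR and 19.9, 18.6 and 19.2 in L_IR, so IR was 3.68-fold under Ctrl (log2 difference -1.74, SE 0.0668, adjusted p = 1.92e-05) and lay below every other library. Pfkp, the platelet type, moved the other way. It read 6.31, 5.74 and 6.21 FPKM in the Ctrl libraries, 12.4, 11.9 and 12.1 in IR, 6.60, 6.24 and 6.27 in Ab_IR and 8.22, 7.65 and 7.77 in L_IR, 2.0-fold higher in IR than in Ctrl (log2 difference 0.89, SE 0.0631, adjusted p = 1.48e-04). Pfkl, the liver type, read 12.2, 13.3 and 14.6 FPKM in Ctrl and 16.9, 16.6 and 18.00 in IR, with no overlap (log2 difference 0.34, SE 0.081, adjusted p = 0.0161). As a share of the summed FPKM of the 3 genes, Pfkm made up 56.0% ± 2.35 in the Ctrl group, 18.7% ± 0.738 in IR, 52.5% ± 0.526 in Ab_IR and 43.5% ± 0.154 in L_IR (SD, n = 3). Pfkp made up 13.8% ± 0.282, 33.8% ± 0.673, 13.8% ± 0.595 and 17.8% ± 0.271. The sum of the 3 genes was lower in every IR library than in any other, at 42.3 to 45.6 FPKM in the Ctrl group, 35.3 to 36.7 in IR, 44.4 to 47.4 in Ab_IR and 42.8 to 45.4 in L_IR. The erythroid markers moved in the direction of Pfkm, with 11 of 11 lower in IR than in Ctrl and 11 of 11 higher in Ab_IR and in L_IR than in IR. The same held for 7 of 7 tested megakaryocyte and platelet markers and 5 of 5 stroma and bone markers. The gate would remove erythroid cells, and the part of these markers in the phosphofructokinase results was not tested.

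**Figure D2:**
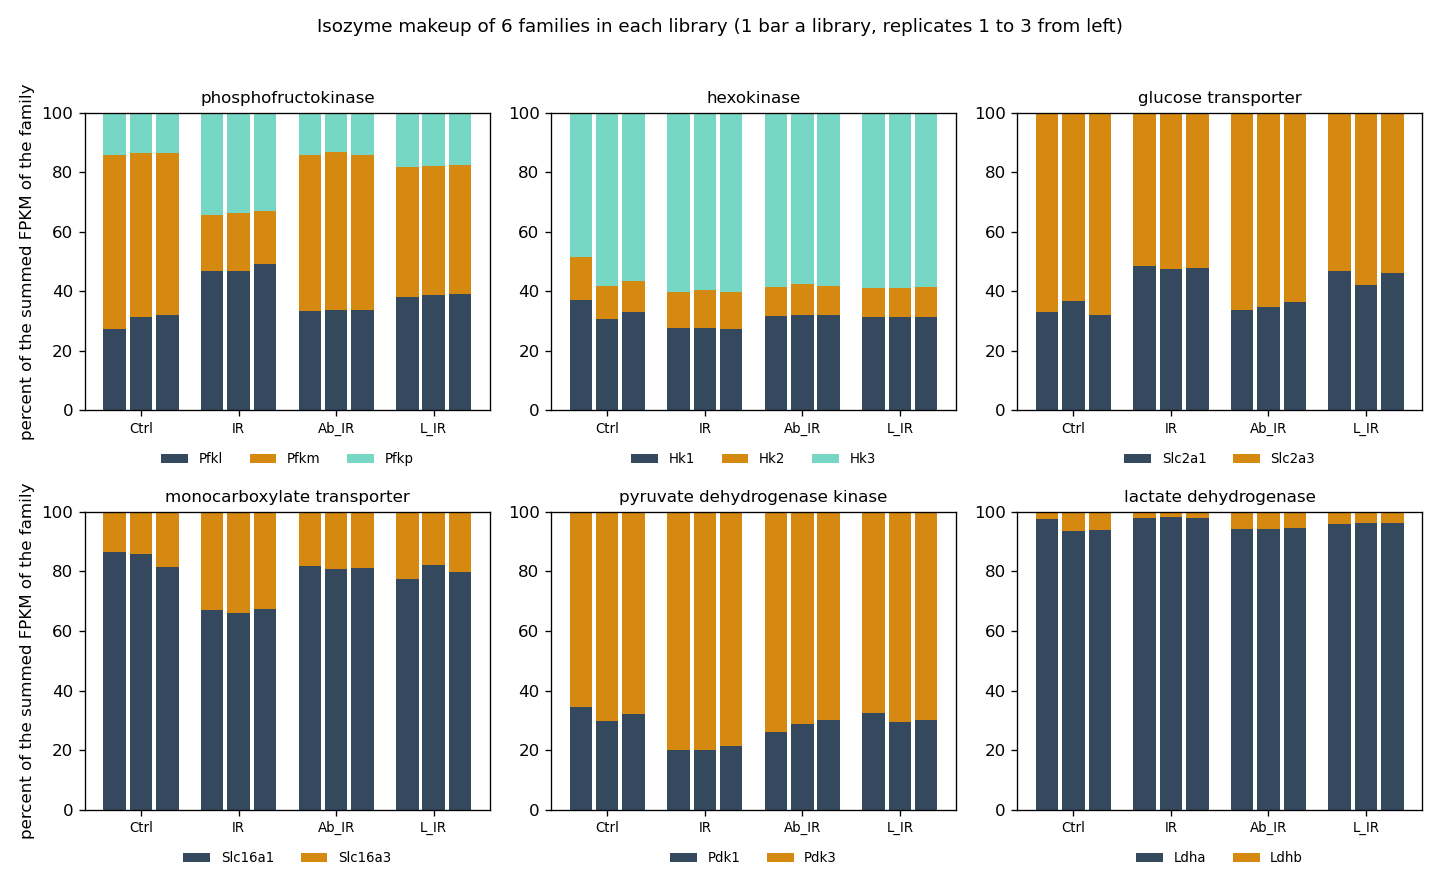
Stacked bars give each isozyme's percent of the summed FPKM of its family, 1 bar a library, for 6 families. Pfkm takes 18.7% of phosphofructokinase in IR against 56.0% in Ctrl, 52.5% in Ab_IR and 43.5% in L_IR, while the makeup of the hexokinases moves less.

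G6pdx had the second largest difference and led the pentose phosphate genes. G6pdx, glucose 6-phosphate dehydrogenase, the NADPH-making entry enzyme, read 95.01, 82.8 and 94.2 FPKM in the Ctrl libraries, 242, 237 and 235 in IR, 89.6, 92.1 and 86.8 in Ab_IR and 90.9, 86.2 and 87.7 in L_IR. It was 2.63-fold higher in IR than in Ctrl (log2 difference 1.39, SE 0.0742, adjusted p = 5.27e-05), and the Ctrl, Ab_IR and L_IR libraries lay together at 82.8 to 95.0 FPKM. Pgd, the second NADPH-making enzyme, read 90.00, 84.5 and 89.5 FPKM in Ctrl and 130.2, 129 and 126 in IR and rose 1.46-fold (log2 difference 0.54, SE 0.058, adjusted p = 7.45e-04). The 2 genes of the non-oxidative branch among the 52 did not pass the test. Tkt, transketolase, differed by 0.17 (adjusted p = 0.108), and Taldo1, transaldolase, by 0.25 (adjusted p = 0.296). Taldo1 read 93.2, 151 and 140.1 FPKM in Ctrl, where the first library was the low one, and 149, 154 and 147 in IR. Without that library the log2 differences were 0.041 for Taldo1 and 0.11 for Tkt, and neither passed. The summed FPKM of the 4 genes was 419 to 484 in Ctrl and 681 to 694 in IR.

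The sequences upstream of 4 genes with large differences are shown because they put a riser of each branch beside Pfkm, which fell. They are the 250 bases before the annotated start, 5′ to 3′ on the gene's strand, from RefSeq on the build GRCm38.p6, and the letters ACGTG (or CACGT, the same on the other strand) are in capitals. ACGTG lies within both the hypoxia response element and the CACGTG E box. No other letters were searched, so a window without capitals is not shown to lack a hypoxia response element. Gene spans are those of GENCODE M21 on GRCm38. G6pdx spans chrX:74409483-74429194 on the minus strand and its window is chrX:74428881-74429130 (minus strand). Slc2a1 spans chr4:119108711-119137983 on the plus strand and its window is chr4:119108495-119108744 (plus strand), with 1 match 36 bases before the start. The RefSeq start can lie inside the GENCODE span, so the G6pdx window lies wholly, and the Slc2a1 and Pfkp windows in part, within the spans given. Pfkp spans chr13:6579768-6648777 on the minus strand and its window is chr13:6648772-6649021 (minus strand). Pfkm spans chr15:98092589-98132451 on the plus strand, and of its 4 annotated starts the window with the most matches, chr15:98092339-98092588 (plus strand), is printed, where the palindrome CACGTG counts once on each strand.
G6pdx: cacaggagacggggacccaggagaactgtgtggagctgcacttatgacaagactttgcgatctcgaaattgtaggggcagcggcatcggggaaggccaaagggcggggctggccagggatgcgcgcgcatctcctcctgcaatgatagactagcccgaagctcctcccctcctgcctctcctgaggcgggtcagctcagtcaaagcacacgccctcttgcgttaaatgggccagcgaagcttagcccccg
Slc2a1: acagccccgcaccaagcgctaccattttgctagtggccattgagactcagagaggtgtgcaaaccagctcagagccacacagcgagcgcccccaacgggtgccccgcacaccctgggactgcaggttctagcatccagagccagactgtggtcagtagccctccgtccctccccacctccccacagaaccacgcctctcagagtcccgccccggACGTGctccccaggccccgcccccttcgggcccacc
Pfkp: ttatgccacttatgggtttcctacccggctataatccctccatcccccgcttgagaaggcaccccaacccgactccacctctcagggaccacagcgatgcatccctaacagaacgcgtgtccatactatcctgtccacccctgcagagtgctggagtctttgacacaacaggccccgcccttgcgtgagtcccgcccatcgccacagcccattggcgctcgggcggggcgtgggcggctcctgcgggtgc
Pfkm: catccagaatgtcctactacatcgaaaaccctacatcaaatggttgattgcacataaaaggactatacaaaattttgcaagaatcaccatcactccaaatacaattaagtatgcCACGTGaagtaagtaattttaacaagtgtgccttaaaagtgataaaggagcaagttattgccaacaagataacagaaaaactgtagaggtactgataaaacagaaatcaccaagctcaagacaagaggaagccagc
A window was found for 49 of the 52 genes (all but Slc2a3, Idh3a and Sdhc), and 18 of them (36.7%) held the letters in at least 1 window, beside 4998 of 27025 genes in the table (18.5%). By their result in IR against Ctrl, 9 of 20 that rose, 5 of 7 that fell and 4 of the other 22, Aldoc (which was not tested) among them, held the letters. A gene with several annotated starts was searched at each, and 35.7% of the 70 windows of these genes held the letters beside 16.6% of 32851 windows of all genes. The count is a description of letters and shows no binding.

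Both glucose transporters and 1 of the lactate carriers rose in IR. Slc2a1 (GLUT1), the basal glucose transporter, read 5.60, 5.02 and 4.41 FPKM in the Ctrl libraries, 12.2, 12.4 and 12.6 in IR, 5.23, 5.41 and 5.43 in Ab_IR and 6.64, 5.08 and 6.06 in L_IR, 2.47-fold higher in IR than in Ctrl (log2 difference 1.16, SE 0.0864, adjusted p = 1.77e-04). Slc2a3 (GLUT3), a transporter of high affinity, read 11.3, 8.69 and 9.29 FPKM in the Ctrl libraries, 12.96, 13.7 and 13.6 in IR, 10.3, 10.1 and 9.51 in Ab_IR and 7.51, 6.99 and 7.10 in L_IR and rose 1.38-fold (log2 difference 0.43, SE 0.0991, adjusted p = 0.014). In each comparison with IR neither gene's groups overlapped. Slc2a1 made up 34.0% ± 2.32 of the summed FPKM of the pair in the Ctrl group, 48.0% ± 0.527 in IR, 34.9% ± 1.34 in Ab_IR and 45.0% ± 2.58 in L_IR (SD, n = 3). Slc16a3 (MCT4), which exports lactate, read 5.78, 6.77 and 8.27 FPKM in the Ctrl libraries, 15.7, 17.2 and 16.4 in IR, 8.63, 8.90 and 8.66 in Ab_IR and 8.85, 7.14 and 8.14 in L_IR and rose 2.37-fold (log2 difference 1.15, SE 0.12, adjusted p = 6.71e-04). Slc16a1 (MCT1), which carries lactate and pyruvate in either direction, read 37.5, 40.7 and 36.8 FPKM in the Ctrl libraries, 32.2, 33.5 and 33.8 in IR, 38.5, 37.7 and 37.04 in Ab_IR and 30.3, 33.1 and 32.5 in L_IR and fell slightly in IR (log2 difference -0.20, SE 0.0633, adjusted p = 0.0411). The summed FPKM of both lactate carriers was 43.3 to 47.5 in Ctrl and 47.9 to 50.7 in IR. Mpc1 and Mpc2, the subunits of the mitochondrial pyruvate carrier, did not pass. Mpc1 read 7.32, 16.2 and 14.7 FPKM in the Ctrl libraries, 11.8, 12.2 and 11.6 in IR, 16.6, 16.03 and 16.1 in Ab_IR and 13.5, 14.9 and 14.5 in L_IR. Mpc2 read 0.95, 3.62 and 3.05 FPKM in the Ctrl libraries, 3.49, 3.38 and 3.42 in IR, 3.0, 2.90 and 3.43 in Ab_IR and 2.80, 3.21 and 2.52 in L_IR. Both Mpc genes were lowest in Ctrl replicate 1, at 47.3% and 28.5% of the mean of the other Ctrl libraries, and without that library Mpc1 fell in IR (log2 difference -0.36, adjusted p = 0.00273).

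The hexokinases, which trap glucose in the cell, changed little. Hk3, the most abundant, read 54.5, 65.3 and 68.97 FPKM in the Ctrl libraries, 79.7, 79.5 and 77.5 in IR, 68.4, 71.8 and 66.6 in Ab_IR and 72.6, 69.96 and 72.1 in L_IR and rose 1.25-fold in IR (log2 difference 0.33, SE 0.0956, adjusted p = 0.0329). Hk1 read 41.5, 34.4 and 40.4 FPKM in the Ctrl libraries, 36.5, 37.1 and 35.1 in IR, 37.1, 39.99 and 36.8 in Ab_IR and 38.6, 37.4 and 38.9 in L_IR, and its difference between IR and Ctrl was -0.09 (adjusted p = 0.419). Hk2, the inducible isozyme, read 16.1, 12.8 and 12.8 FPKM in the Ctrl libraries, 15.9, 16.9 and 16.04 in IR, 11.3, 12.7 and 11.3 in Ab_IR and 11.9, 11.7 and 12.5 in L_IR, and differed by 0.22 (adjusted p = 0.113). The IR libraries of Hk2 overlapped Ctrl replicate 1 only, and without that library Hk2 rose (log2 difference 0.33, adjusted p = 0.00187). The lactate dehydrogenases differed in behaviour. Ldha read 187, 214 and 219 FPKM in the Ctrl libraries, 291, 288 and 290.0 in IR, 234, 233 and 220.0 in Ab_IR and 235, 228 and 234 in L_IR. Ldhb, the heart type that favours the return of lactate to pyruvate, read 4.44, 14.2 and 13.7 FPKM in the Ctrl libraries, 6.03, 5.18 and 6.38 in IR, 13.9, 14.1 and 12.5 in Ab_IR and 10.2, 8.94 and 8.87 in L_IR. Its difference between IR and Ctrl did not pass with all 6 libraries (log2 difference -0.64, SE 0.394, adjusted p = 0.235). Ctrl replicate 1 lay below the IR libraries and the other Ctrl libraries above them. Without that library Ldhb fell in IR (log2 difference -1.13, adjusted p = 1.17e-04). Ldhb made up 2.32%, 6.24% and 5.90% of the summed FPKM of the pair in the Ctrl libraries, 1.98% ± 0.198 in IR, 5.57% ± 0.174 in Ab_IR and 3.87% ± 0.274 in L_IR (SD, n = 3).

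Genes for pyruvate entry into the mitochondrion and for the TCA cycle showed no common direction in IR against Ctrl. Of 7 pyruvate entry genes 2 rose and 3 fell (28.6% and 42.9%, beside 17.5% and 25.5% of all genes). Dlat and Dld, the acetyl-transferring and the lipoamide-oxidizing subunits of pyruvate dehydrogenase, rose by 0.41 (adjusted p = 0.00398) and 0.22 (adjusted p = 0.0316), while Pdhb, a subunit of its decarboxylase, fell (log2 difference -0.25, adjusted p = 0.0135). Pdk1, a kinase that switches the complex off, fell 1.5-fold. It read 9.28, 9.40 and 9.24 FPKM in the Ctrl libraries, 5.71, 6.30 and 6.55 in IR, 9.12, 9.73 and 9.42 in Ab_IR and 9.23, 9.20 and 9.14 in L_IR (log2 difference -0.52, SE 0.0689, adjusted p = 0.00169 for IR against Ctrl). Pdk3, another such kinase, read 17.6, 22.4 and 19.6 FPKM in the Ctrl libraries, 22.7, 25.3 and 24.3 in IR, 25.7, 24.01 and 21.8 in Ab_IR and 19.1, 22.1 and 21.1 in L_IR and did not pass (log2 difference 0.27, adjusted p = 0.0636). Pcx, pyruvate carboxylase, which refills the cycle, fell from 2.89 ± 0.327 to 1.68 ± 0.189 FPKM (SD, n = 3; adjusted p = 0.00664). The pyruvate entry genes summed to 165 to 175 FPKM in Ctrl and 169 to 175 in IR.

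Of the 18 TCA cycle genes, 3 rose, 2 fell and 13 did not pass (16.7% higher and 11.1% lower, beside 17.5% and 25.5% of all genes). Idh3a, a subunit of the NAD-linked isocitrate dehydrogenase, read 20.5, 26.3 and 24.3 FPKM in the Ctrl libraries, 33.2, 32.95 and 32.2 in IR, 27.4, 25.9 and 25.7 in Ab_IR and 27.7, 28.3 and 28.2 in L_IR and rose (log2 difference 0.46, SE 0.095, adjusted p = 0.00942). Its partner subunit Idh3g read 55.8, 53.5 and 57.1 FPKM in the Ctrl libraries, 44.2, 44.5 and 44.4 in IR, 55.5, 58.9 and 51.3 in Ab_IR and 56.7, 57.3 and 55.9 in L_IR and fell (log2 difference -0.32, SE 0.0551, adjusted p = 0.00503), while Idh3b, at 23.3, 24.2 and 26.8 FPKM in the Ctrl libraries, 29.3, 28.02 and 27.9 in IR, 25.8, 25.8 and 24.4 in Ab_IR and 28.3, 28.1 and 28.8 in L_IR, did not pass (log2 difference 0.19, adjusted p = 0.0709). The subunits of 1 enzyme thus moved in opposite directions. The same held for oxoglutarate dehydrogenase, where Ogdh rose (log2 difference 0.32, adjusted p = 0.0149) and Dlst fell (log2 difference -0.38, adjusted p = 0.00199). The call of Dlst was kept under every alternative run, while that of Ogdh was lost in some. Suclg1, a subunit of succinyl-CoA ligase, also rose (log2 difference 0.18, adjusted p = 0.0328). Idh1, the cytosolic NADP-linked enzyme, read 32.8, 37.5 and 31.8 FPKM in the Ctrl libraries, 30.8, 30.97 and 31.3 in IR, 33.5, 29.1 and 30.7 in Ab_IR and 30.1, 29.9 and 30.4 in L_IR. Idh2, its mitochondrial counterpart, read 74.6, 79.3 and 79.4 FPKM in the Ctrl libraries, 70.4, 69.9 and 71.4 in IR, 85.7, 89.1 and 82.6 in Ab_IR and 88.3, 83.2 and 86.9 in L_IR. For IR against Ctrl neither passed, at -0.13 (adjusted p = 0.23) and -0.14 (adjusted p = 0.0948). The 4 succinate dehydrogenase subunits Sdha to Sdhd differed by -0.04 to 0.13 on the log2 scale and none passed, but without Ctrl replicate 1 all 4 had negative differences and Sdhb (log2 difference -0.26, adjusted p = 0.0139) and Sdhd (log2 difference -0.12, adjusted p = 0.0496) fell. Citrate synthase (Cs), fumarase (Fh1) and the malate dehydrogenases Mdh1 and Mdh2 did not pass either. Without Ctrl replicate 1, Cs (log2 difference 0.16, adjusted p = 0.0169) and Mdh2 (log2 difference 0.20, adjusted p = 0.00627) rose and Idh2 (log2 difference -0.17, adjusted p = 0.00889) fell. All 18 genes summed to 731, 846 and 825 FPKM in Ctrl and to 822 to 825 in IR. Of the 18, 5 rose and 5 fell without Ctrl replicate 1, beside 7222 of all 12072 genes called in either direction. The split of this group depended on scaling, with 6 higher and 2 lower where the immunoglobulin genes were left out and 1 higher and 3 lower after quantile normalization.

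**Figure D3:**
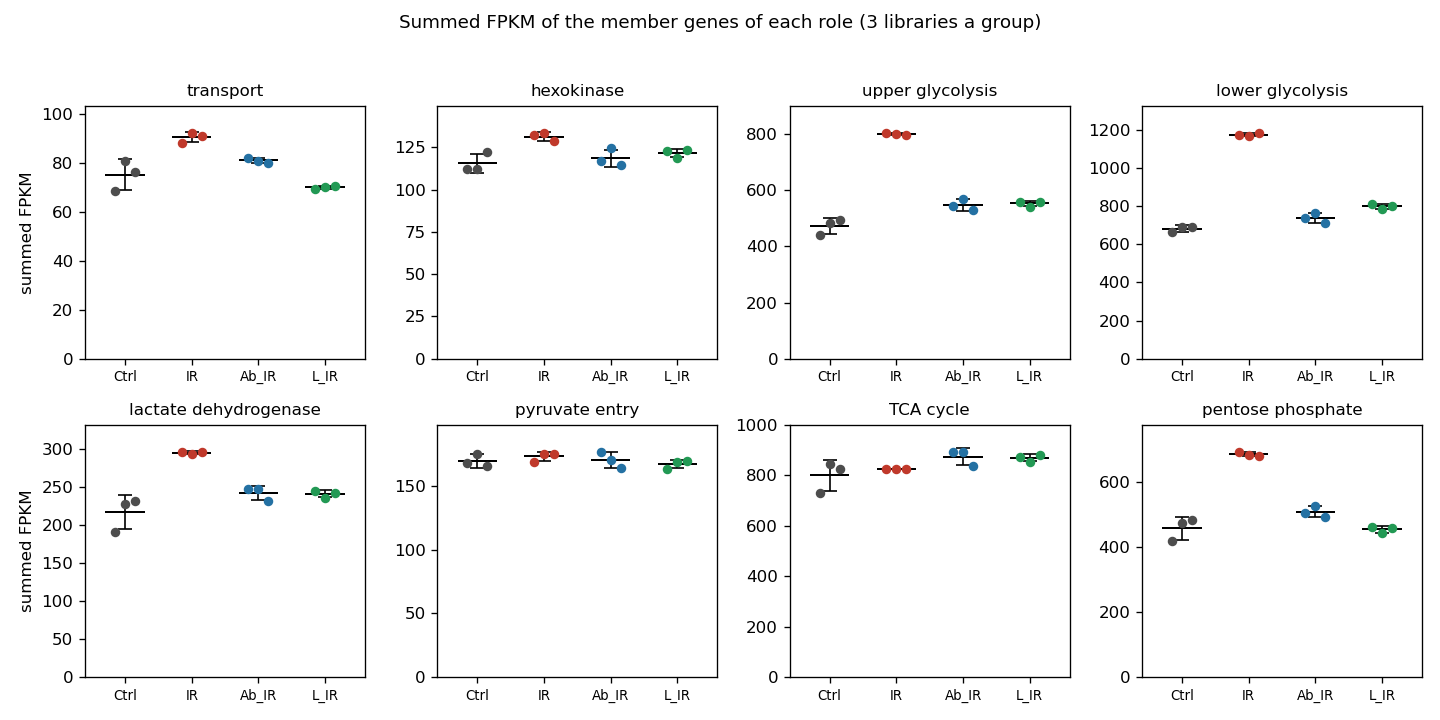
Summed FPKM of the genes of each role in each library (points) with the group mean (line) and SD (bars), 3 libraries a group, each panel with its own linear axis from 0. The sums of upper glycolysis, lower glycolysis and the pentose phosphate genes are highest in IR, while the TCA cycle sum is 822 to 825 FPKM in IR and 731 to 846 in Ctrl.

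Ab_IR and L_IR were each set against IR to ask how these genes differ between the irradiated groups. Both comparisons use the same 3 IR libraries, so their values are given side by side and not as independent evidence. Of the 51 genes, 16 were higher and 26 lower in Ab_IR than in IR, beside 68.7% of all 12067 genes tested (39.4% higher, 29.4% lower). In L_IR against IR the counts were also 16 higher and 26 lower, beside 66.8% of all 12163 genes tested (40.8% higher, 26% lower). The groups did not overlap for 41 of the 51 genes in the first comparison, beside 73% of all genes, and for 44 in the second, beside 71.2%. The median log2 differences of the genes were -0.113 and -0.0932, where all genes had medians of 0.0607 and 0.073. A change of more than 2-fold on the log2 scale was reached by 4 genes in Ab_IR, 2 higher and 2 lower (beside 7.57% of all genes, 5.11% higher and 2.46% lower), and by 2 in L_IR, 1 higher and 1 lower (6.22%, 4.09% and 2.13%). The split moved with scaling, to 7 higher and 28 lower in Ab_IR where the immunoglobulin genes were left out, and to 10 higher and 32 lower in L_IR where all libraries were set to a common sum. With the Nppa split as a term, which is set by Ctrl replicate 1 alone, it was 19 higher and 18 lower in Ab_IR and 17 and 17 in L_IR.

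Of the 5 genes of lower glycolysis, 5 were lower than in IR in each group. Of the 6 of upper glycolysis, 5 were lower in Ab_IR and 4 in L_IR, and Pfkm was higher in both. The 9 genes summed above stood at 1418 to 1517 FPKM in Ab_IR and 1510 to 1561 in L_IR. Gpi1 read 151, 159 and 147 FPKM in Ab_IR and 149.7, 144 and 149 in L_IR, 1.68-fold (log2 difference -0.74, SE 0.0391, adjusted p = 4.03e-06) and 1.73-fold (log2 difference -0.79, SE 0.0241, adjusted p = 5.61e-07) under IR. Eno1 read 120.3, 121 and 116 FPKM and 134, 126 and 129 FPKM, with differences from IR of -0.84 (SE 0.031, adjusted p = 8.29e-07) and -0.72 (SE 0.029, adjusted p = 1.62e-06). Aldoa read 210.4, 222 and 204 FPKM in Ab_IR and 219, 213 and 220.0 in L_IR (log2 difference -0.60, SE 0.0215, adjusted p = 1.05e-06 for L_IR against IR). For all 3 genes every library of both groups lay below every IR library. Of the 12 neutrophil and monocyte markers, 6 were lower and 2 higher in Ab_IR than in IR, and 10 were lower and 1 higher in L_IR, and their part in these differences was not tested. The smallest of the 9 differences were those of Ldha (-0.34 and -0.32) and Tpi1, triose phosphate isomerase (-0.38 and -0.32).

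Pfkm and G6pdx had the 2 largest differences from IR in both groups. Pfkm was 3.59-fold higher in Ab_IR than in IR (log2 difference 1.70, SE 0.0433, adjusted p = 1.63e-07) and 2.86-fold higher in L_IR (log2 difference 1.39, SE 0.0356, adjusted p = 2.65e-07). G6pdx was 2.66-fold lower in Ab_IR (log2 difference -1.40, SE 0.0346, adjusted p = 1.48e-07) and 2.7-fold lower in L_IR (log2 difference -1.42, SE 0.0269, adjusted p = 7.78e-08). Pfkp was lower in both, with log2 differences of -0.84 (SE 0.041, adjusted p = 2.71e-06) and -0.57 (adjusted p = 1.50e-05). Pgd was lower too, at -0.50 and -0.58. Taldo1 was higher in Ab_IR than in IR (log2 difference 0.20, adjusted p = 0.0015) and lower in L_IR (log2 difference -0.11, adjusted p = 0.0173).

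Among the transporters, Slc2a1 was 2.31-fold lower in Ab_IR than in IR (log2 difference -1.07, SE 0.0381, adjusted p = 6.82e-07) and 2.09-fold lower in L_IR (log2 difference -0.96, SE 0.0798, adjusted p = 5.18e-05). Slc16a3 was lower in both, at -0.84 (SE 0.044, adjusted p = 3.83e-06) and -0.95 (SE 0.072, adjusted p = 3.19e-05). Slc2a3 differed from IR by -0.39 (adjusted p = 1.81e-04) in the Ab_IR libraries, and the L_IR libraries were 1.87-fold lower (log2 difference -0.82, SE 0.0395, adjusted p = 3.86e-06). Mpc1 was higher than in IR in both groups, by 0.42 and 0.25. Hk2 was lower in both, at -0.44 and -0.41, and Hk1 passed in neither. Ldhb was 2.3-fold higher in Ab_IR than in IR (log2 difference 1.08, SE 0.0775, adjusted p = 1.71e-05) and 1.6-fold higher in L_IR (log2 difference 0.59, adjusted p = 5.72e-04), while Ldha was lower in both.

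Of the 7 pyruvate entry genes, 3 were higher and 2 lower in Ab_IR than in IR (42.9% and 28.6%, beside 39.4% and 29.4% of all genes). In L_IR 4 were higher and 3 lower (57.1% and 42.9%, beside 40.8% and 26%). Pdk1 was higher in both groups, by 0.54 and 0.51, as was Pcx, by 0.52 and 0.42, and Dlat was lower, at -0.32 and -0.30. Of the 18 TCA cycle genes, 8 were higher and 5 lower in Ab_IR (44.4% and 27.8%, beside 39.4% and 29.4% of all genes), and 9 were higher and 3 lower in L_IR (50% and 16.7%, beside 40.8% and 26%). Idh2, Idh3g, Dlst and the 4 succinate dehydrogenase subunits were higher in both, with Dlst at 0.41 and 0.35 and Sdhb at 0.34 and 0.19. Idh3a, Suclg1 and Cs were lower in both, with Suclg1 at -0.30 and -0.25. These TCA differences were at most 0.41 in size on the log2 scale, and scaling changed their balance, to 2 higher and 6 lower in Ab_IR without the immunoglobulin genes and to 5 higher and 8 lower in L_IR with libraries set to a common sum.

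**Figure D4:**
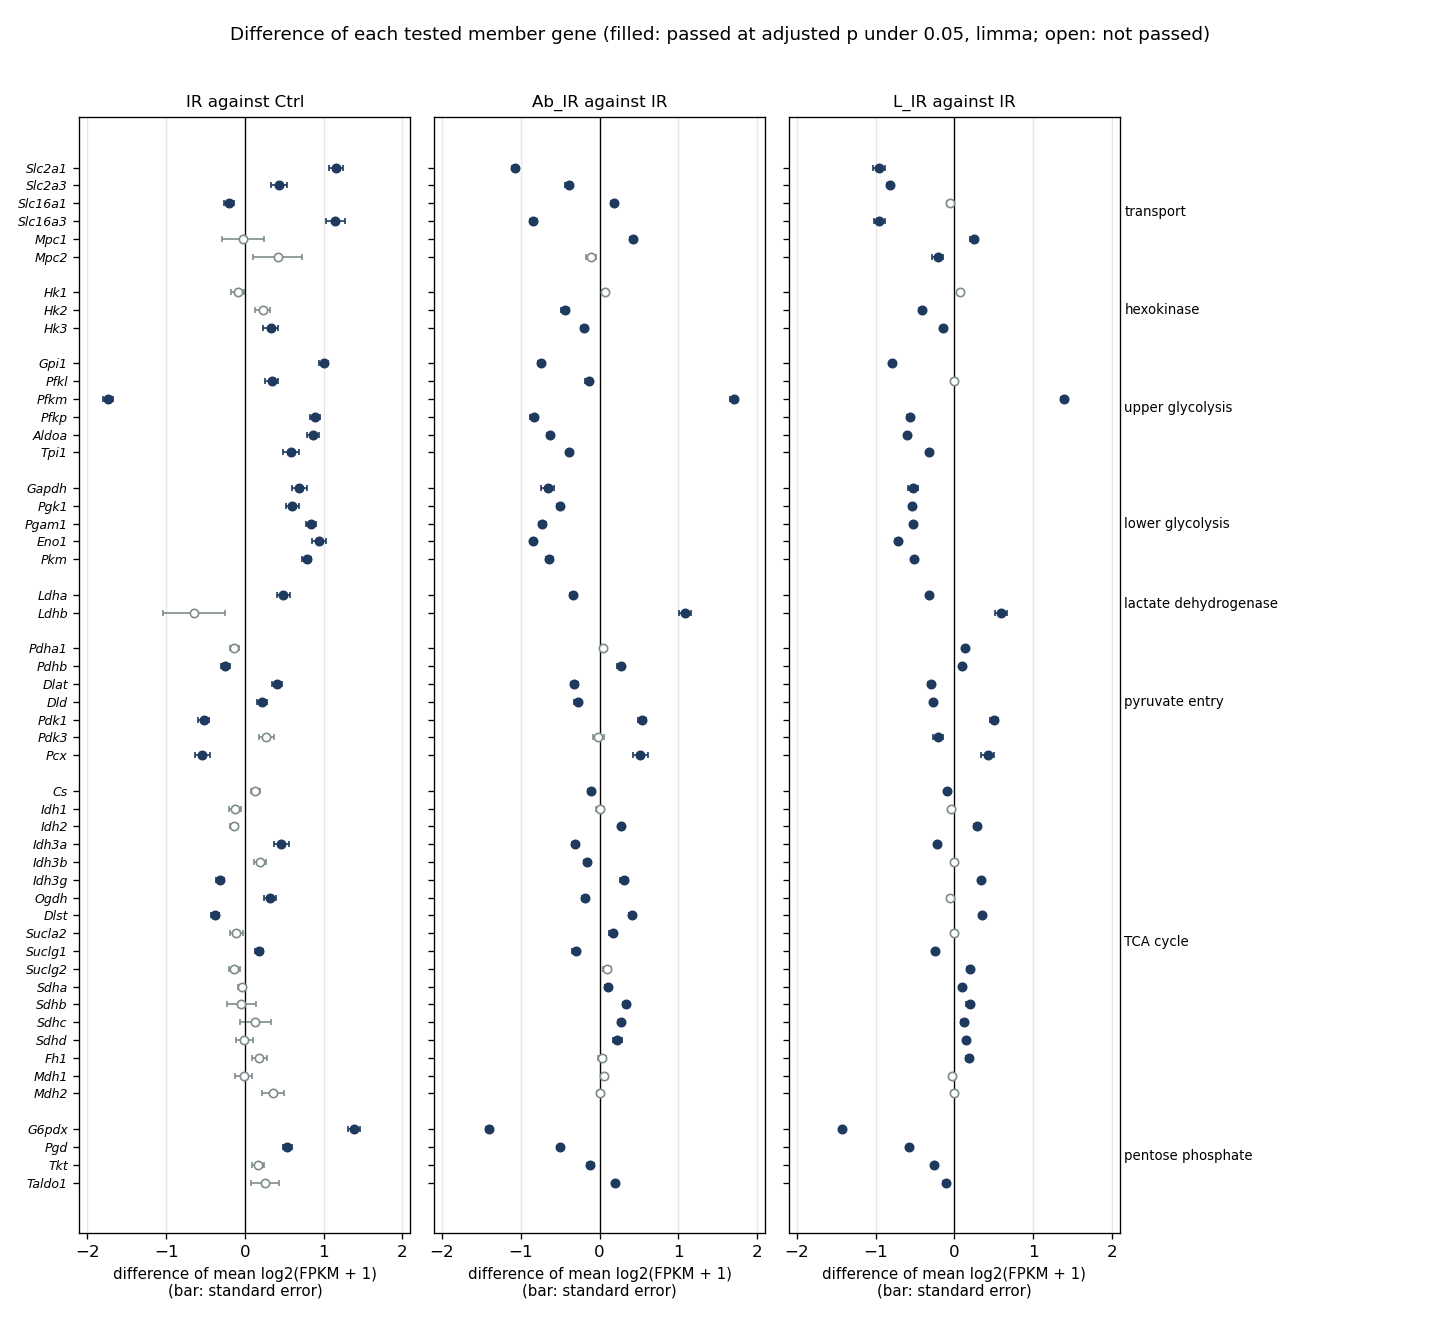
Difference of mean log2(FPKM + 1) for the 51 tested genes, ordered by role, in IR against Ctrl, Ab_IR against IR and L_IR against IR, with standard errors as bars, where filled points passed at an adjusted p under 0.05 and open points did not. Pfkm lies far left at -1.74 in the first panel and far right at 1.70 and 1.39 in the others, G6pdx mirrors it at 1.39, -1.40 and -1.42, and the panels share the IR libraries.

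Ab_IR and L_IR were then compared with each other. Of the 51 genes, 9 were higher and 7 lower in Ab_IR than in L_IR, beside 38% of all 12194 genes tested (18.2% higher, 19.8% lower), and 0 differed by more than 2-fold, beside 0.533%. The groups did not overlap for 23 genes, beside 51.9%. The count of 16 calls fell to 7 without L_IR replicate 3 and to 9 without L_IR replicate 1. The split was 4 higher and 18 lower where the immunoglobulin genes were left out. Ldhb had the largest difference, 1.44-fold higher in Ab_IR (log2 difference 0.49, SE 0.0689, adjusted p = 0.00188). Slc2a3 was 1.39-fold higher (log2 difference 0.42, SE 0.0475, adjusted p = 7.40e-04), Pfkm 1.26-fold (log2 difference 0.32, SE 0.0452, adjusted p = 0.00196) and Taldo1 1.24-fold (log2 difference 0.31, SE 0.0378, adjusted p = 0.00105). The groups did not overlap for these 4 genes. Slc16a1 (log2 difference 0.24, SE 0.0433, adjusted p = 0.00552) and Sucla2, a subunit of the ATP-forming succinyl-CoA ligase (log2 difference 0.18, SE 0.0511, adjusted p = 0.0321), were also higher in Ab_IR. Pfkp (log2 difference -0.27, SE 0.0453, adjusted p = 0.00389) and Pgam1 (log2 difference -0.21, SE 0.0417, adjusted p = 0.00779) were lower in Ab_IR. The erythroid markers were higher in Ab_IR than in L_IR for 11 of 11, and the neutrophil and monocyte markers for 8 of 12. Of 8 megakaryocyte and platelet markers 7 were higher in Ab_IR, and of 8 B and plasma cell markers 6 were lower. The part of these markers in the differences was not tested.

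Ab_IR and L_IR were also set against Ctrl, with 0 and 4 of the 51 genes passing. With all 12 libraries in 1 fit the counts were 5 and 18, beside 2326 and 2706 of all 12699 genes tested. A low count here thus does not show that few genes differed. Both comparisons use the Ctrl libraries that IR was compared with. In Ab_IR against Ctrl 0 of 51 genes passed with limma, beside 2.1% of all 12134 genes tested and 0.923% past 2-fold, and 6 had an unadjusted p under 0.05 (Slc16a3, Gpi1, Pfkl, Aldoa, Mdh2 and Taldo1). The groups did not overlap for 16 genes, beside 33.5%. The largest differences were those of Taldo1 (log2 difference 0.45, adjusted p = 0.222), Ldhb (log2 difference 0.44, adjusted p = 0.499) and Sdhc (log2 difference 0.40, adjusted p = 0.275), which were all low in Ctrl replicate 1. Without that library they were 0.24, -0.047 and 0.17 on the log2 scale, and none passed. G6pdx differed by -0.02 (SE 0.0817) and Pfkm by -0.03 (SE 0.0754). A p that misses the threshold does not show that the groups are alike. In L_IR against Ctrl 3 genes were higher and 1 lower, beside 8.84% of all 12251 genes tested (4.76% higher, 4.08% lower), and 26 did not overlap, beside 36.1%. With all libraries set to a common sum the split was 0 higher and 4 lower. Pfkm was 1.29-fold lower (log2 difference -0.35, SE 0.0686, adjusted p = 0.0294), and Pfkp was 1.29-fold higher (log2 difference 0.33, SE 0.0673, adjusted p = 0.0342). Pgam1 (log2 difference 0.32, SE 0.067, adjusted p = 0.0362) and Pkm (log2 difference 0.27, SE 0.0629, adjusted p = 0.0486) were also higher. These 4 calls were lost when any 1 L_IR library was left out. The count was 1 without Ctrl replicate 2 or 3 and 13 without Ctrl replicate 1, beside 735, 915 and 2527 of all 12251 genes. Without Ctrl replicate 1, 9 genes passed that had not passed with all 6 libraries. Among them Ldhb went from -0.048 to -0.53 on the log2 scale (adjusted p = 0.00471), and Slc2a3 (-0.28, adjusted p = 0.0217) and Slc16a1 (-0.27) were also lower. Fh1 (0.27, adjusted p = 0.00926), Pfkl (0.27), Gpi1 (0.21), Aldoa (0.20), Mdh2 (0.19) and Tpi1 (0.16) were higher. Of the markers in L_IR against Ctrl, 9 of 11 erythroid and 5 of 12 neutrophil and monocyte markers were lower and 7 of 8 tested B and plasma cell markers were higher. The 5 tested stroma and bone markers were lower than in Ctrl in both groups. The part of these markers in the differences was not tested.

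Other genes of the same pathways were taken from lists chosen by name. Of 19 further glycolysis genes tested in IR against Ctrl, 7 rose and 8 fell, beside 17.5% of all genes higher and 25.5% lower. Tigar, which lowers fructose 2,6-bisphosphate, read 1.82, 3.56 and 3.86 FPKM in the Ctrl libraries, 7.60, 7.81 and 8.32 in IR, 3.38, 3.49 and 3.09 in Ab_IR and 3.56, 3.63 and 3.98 in L_IR (log2 difference 1.17, SE 0.207, adjusted p = 0.00534 for IR against Ctrl). Gpd2, the mitochondrial glycerol phosphate dehydrogenase, read 9.78, 8.90 and 8.98 FPKM in the Ctrl libraries, 16.5, 16.5 and 16.4 in IR, 8.07, 7.60 and 7.93 in Ab_IR and 9.56, 9.68 and 10.3 in L_IR (log2 difference 0.77, SE 0.0615, adjusted p = 2.32e-04), and Pfkfb4, a bifunctional regulator of phosphofructokinase, rose by 0.65 (adjusted p = 0.00105). The 3 largest decreases were those of Pklr, Ldhc and Slc2a8. Pklr, the pyruvate kinase of liver and red cells, read 27.96, 21.3 and 23.1 FPKM in the Ctrl libraries, 4.65, 5.02 and 5.06 in IR, 20.2, 21.7 and 21.1 in Ab_IR and 17.4, 17.2 and 16.8 in L_IR (log2 difference -2.08, SE 0.106, adjusted p = 4.63e-05). Slc2a8 (GLUT8) had a log2 difference of -1.02 (adjusted p = 4.09e-04). Ldhc, the testis lactate dehydrogenase, read 1.67, 2.26 and 2.70 FPKM in Ctrl and 0.23, 0.23 and 0.21 in IR (log2 difference -1.38). It met the filter of 1 FPKM only through Ctrl here, and only through Ab_IR in Ab_IR against IR, so its calls there support nothing. In Ab_IR against IR, 8 of 18 were higher and 8 lower (all genes 39.4% and 29.4%), led by Pklr (1.89), Ldhc (1.53) and Slc2a8 (1.41) above and Tigar (-1.04), Gpd2 (-0.98) and Pfkfb4 (-0.82) below. In L_IR against IR, 8 of 19 were higher and 8 lower (all genes 40.8% and 26%), led by Pklr (1.62), Slc2a8 (1.05) and Pck2 (0.94) above and Pfkfb4 (-1.05), Adpgk (-0.97) and Tigar (-0.92) below. The erythroid markers moved in the same direction as Pklr in each of these 3 comparisons, and their part was not tested.

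Of 21 further pyruvate and TCA genes, 7 rose and 5 fell in IR, where 17.5% of all genes were higher and 25.5% lower. The aspartate-glutamate carriers Slc25a12 (log2 difference 0.84, adjusted p = 1.35e-04) and Slc25a13 (log2 difference 0.70, adjusted p = 0.00251) and the transaminase Got2 (log2 difference 0.82, adjusted p = 1.75e-04), all parts of the malate-aspartate shuttle, led the increases. Pdk2 (log2 difference -1.06, adjusted p = 0.00138), Pdp1 (log2 difference -0.55, adjusted p = 0.0147) and Pdp2 (log2 difference -0.47, adjusted p = 0.00355), a kinase and the phosphatases of pyruvate dehydrogenase, led the decreases. Against IR, 8 were higher and 8 lower in Ab_IR (all genes 39.4% and 29.4%), and 5 were higher and 9 lower in L_IR (40.8% and 26%). Slc25a12 and Slc25a13 were among the largest decreases in both (Slc25a12 -0.83 and -0.65), with Slc25a13 at -0.70 and -0.48. Pdk2 was the largest increase (1.05 and 0.63), and Slc25a1, the citrate carrier, was higher in both (0.61 and 0.34). The other leading increases were those of Sdhaf4, an assembly factor of succinate dehydrogenase, in Ab_IR (0.52) and of Pdp1 in L_IR (0.41). Pdk4, a kinase induced by fasting and abundant in muscle, read 0, 3.43 and 3.33 FPKM in the Ctrl libraries, 2.83, 4.01 and 3.35 in IR, 0.03, 0.05 and 0.01 in Ab_IR and 0.01, 0.03 and 0.05 in L_IR. It followed the presence of the heart muscle transcripts library by library, and the part of those transcripts in its difference was not tested. Of 8 further pentose phosphate genes, 2 rose and 2 fell in IR, against the same shares of all genes. Rpe, ribulose phosphate epimerase, rose by 0.65 (adjusted p = 0.00118) and H6pd, the glucose 6-phosphate dehydrogenase of the endoplasmic reticulum, by 0.61 (adjusted p = 0.00551), and both were lower in Ab_IR (-0.74 and -0.77) and L_IR (-0.90 and -0.49) than in IR. Rbks, ribokinase, and Pgls, the lactonase after G6pdx, fell in IR, with log2 differences of -0.28 (adjusted p = 0.0239) and -0.21 (adjusted p = 0.0323). Against IR, 4 of the 8 were higher and 2 lower in Ab_IR, and 5 were higher and 2 lower in L_IR, beside the shares of all genes above. Pgls (0.79 and 0.56), Shpk, which phosphorylates sedoheptulose (0.57 and 0.46), and Rbks (0.49 and 0.27) were the largest increases in Ab_IR and L_IR.

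Of 18 regulators of these pathways tested, 3 rose and 8 fell in IR, beside 17.5% of all genes higher and 25.5% lower. Hif1a, the oxygen-regulated subunit of the factor that drives many glycolytic genes, read 14.8, 17.9 and 16.02 FPKM in the Ctrl libraries, 28.2, 27.6 and 27.8 in IR, 13.4, 12.9 and 13.02 in Ab_IR and 14.8, 15.6 and 15.2 in L_IR (log2 difference 0.75, SE 0.0785, adjusted p = 6.88e-04 for IR against Ctrl). Mlx, the partner of the glucose-sensing Mondo factors, read 38.5, 35.03 and 33.6 FPKM in the Ctrl libraries, 48.7, 48.3 and 49.99 in IR, 31.5, 31.7 and 30.6 in Ab_IR and 31.5, 30.2 and 30.1 in L_IR (log2 difference 0.45, SE 0.0685, adjusted p = 0.003), and Egln3, a prolyl hydroxylase that acts on HIF, rose by 0.35 (adjusted p = 0.0077). The IR libraries lay above all others for Hif1a and Mlx. Myc, an activator of growth and glycolytic genes, read 82.8, 67.9 and 71.4 FPKM in the Ctrl libraries, 46.8, 41.6 and 41.5 in IR, 57.4, 57.9 and 54.4 in Ab_IR and 41.2, 39.3 and 44.5 in L_IR (log2 difference -0.76, SE 0.0951, adjusted p = 0.00139), and its L_IR level was also under Ctrl (log2 difference -0.81, adjusted p = 0.00385). Foxo3, a stress factor of HSCs, fell (log2 difference -0.56, adjusted p = 0.00962). Meis1, an HSC factor, read 1.82, 1.61 and 1.57 FPKM in Ctrl and 0.46, 0.35 and 0.31 in IR (log2 difference -0.96). It met the filter of 1 FPKM only through Ctrl here, and only through Ab_IR or L_IR in their comparisons with IR, so its calls support nothing. In Ab_IR against IR, 8 regulators were higher and 5 lower, and in L_IR against IR 7 and 4, with all genes at 39.4% and 29.4% in the first and 40.8% and 26% in the second. Hif1a was lower in both (-1.03 and -0.83), as were Mlx (-0.63 and -0.66) and Egln3 (-0.51 and -0.63). Meis1 (0.64 and 0.60) and Foxo3 (0.39 and 0.44) were higher in both. The other leading increases were those of Arrdc4 in Ab_IR (0.51) and of Pml in L_IR (0.49), and both groups lay above IR without overlap for either gene. Arrdc4 read 1.75, 1.34 and 1.95 FPKM in the Ctrl libraries, 1.0, 0.91 and 1.03 in IR, 1.80, 1.95 and 1.72 in Ab_IR and 1.49, 1.56 and 1.73 in L_IR, and Pml read 23.98, 19.2 and 23.1 FPKM in the Ctrl libraries, 15.4, 16.03 and 15.5 in IR, 19.2, 20.3 and 19.3 in Ab_IR and 22.9, 21.9 and 22.2 in L_IR.

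Between Ab_IR and L_IR, where 18.2% of all genes were higher and 19.8% lower in Ab_IR, the further glycolysis genes gave 8 higher and 4 lower of 19. Ldhc (0.63), Adpgk, the ADP-dependent glucokinase (0.43), and Slc2a8 (0.36) led the increases, and Pgam2, the muscle phosphoglycerate mutase (-0.32), Gpd2 (-0.29) and Pfkfb2 (-0.23) the decreases, all as log2 differences. Of 20 further pyruvate and TCA genes 5 were higher and 5 lower, with Pdk2 (0.42), Sdhaf4 (0.28) and Slc25a1 (0.27) at the top and Got2 (-0.26) and Acly, ATP citrate lyase (-0.25), among the lower ones. Of 8 further pentose phosphate genes 2 were higher, Rbks (0.22) and Rpia, ribose phosphate isomerase (0.19), and 2 lower, H6pd (-0.28) and Prps2, which uses ribose phosphate to start nucleotide synthesis (-0.18). Of 18 regulators 3 were higher and 4 lower. Myc (log2 difference 0.43, adjusted p = 0.001), Vhl (0.26) and Stk11 (0.21) were the higher ones, and Mlxip (-0.35), Txnip (-0.27) and Hif1a (-0.20) led the lower ones. In Ab_IR against Ctrl, Pgam2 alone of these lists passed (log2 difference -0.79, adjusted p = 0.0249). In L_IR against Ctrl, Pklr (log2 difference -0.46, adjusted p = 0.0436), Adpgk (log2 difference -0.45, adjusted p = 0.00715) and Pfkfb4 (log2 difference -0.40, adjusted p = 0.0303) were lower beside Myc, and Got2 was higher (log2 difference 0.44, adjusted p = 0.0085).

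**Figure D5:**
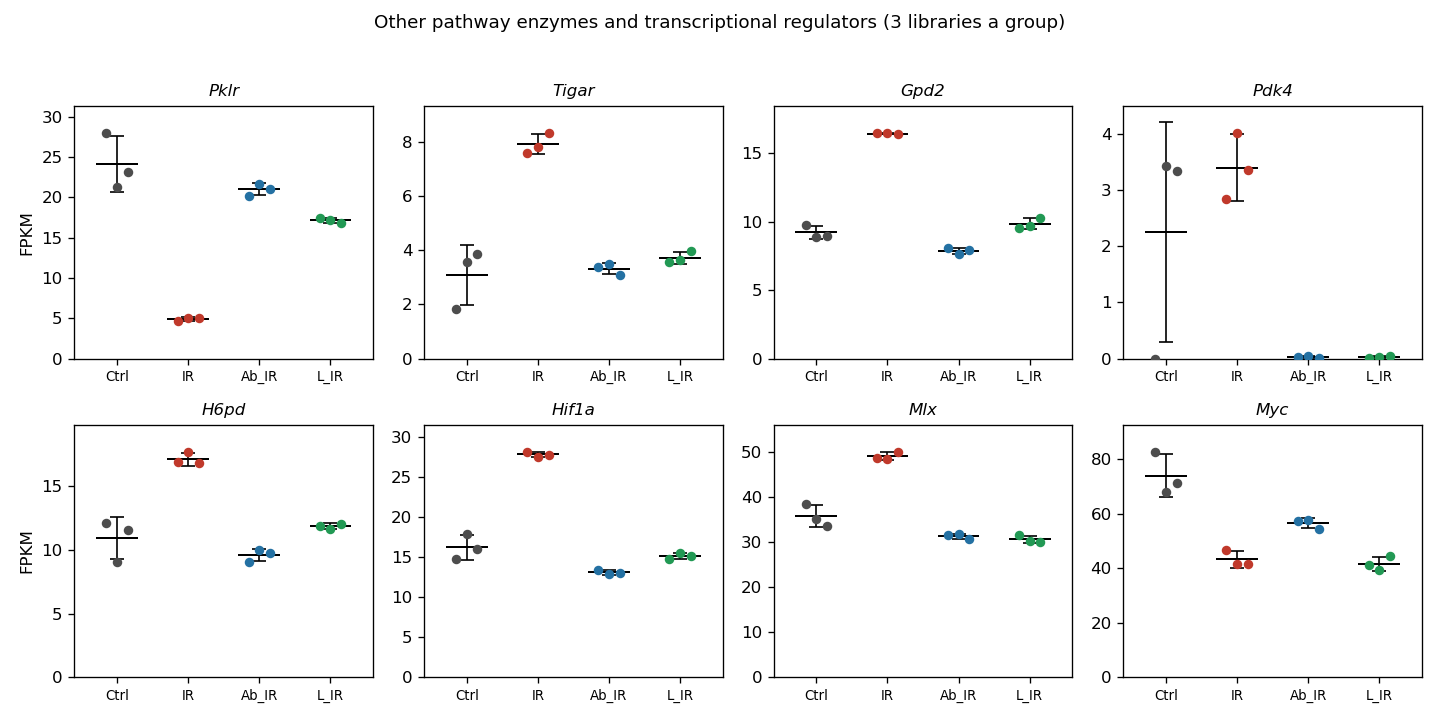
FPKM of 5 further pathway genes and 3 regulators in each library (points) with the group mean (line) and SD (bars), 3 libraries a group, each panel with its own linear axis from 0. Tigar, Gpd2, H6pd, Hif1a and Mlx are highest in IR and Pklr is lowest there, while Pdk4 is at 2.83 to 4.01 FPKM in IR and 2 Ctrl libraries and at 0 to 0.05 elsewhere.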

How the data were processed

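RNA of 12 libraries of sorted mouse bone marrow cells (3 replicates of each group, the group taken from the treatment label) was analysed from the deposited values per gene. The authors deposited 1 table a library with no unit named in it, and the values were read as FPKM. The submitters' processing notes name fastp, HISAT2 and StringTie with GRCm38 and mm10, whereas the study's methods name RSEM, and the notes and the methods were not reconciled. No whole-read steps were found in the values, so depth and counting error are unknown and no interval or floor is given. The files hold 31340 rows and 31272 names, and for the 62 names on several rows the row of the highest mean stood for the name.

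Differences were tested with limma 3.58.1 (R 4.3.3), using lmFit followed by eBayes with its trend option, on log2(FPKM + 1), on the 6 libraries of the 2 groups compared, for genes of at least 1 FPKM in 3 of them, with Benjamini-Hochberg adjustment over all genes tested and a threshold of 0.05, and a stricter rule of more than 2-fold. Tables and figures were made with Python 3.11.15, pandas 2.3.3 and matplotlib 3.10.9. The genes of largest change among those that passed in each comparison, at most 8, are given in full, and of each further list the 3 largest changes in each direction are named, except for 1 gene that is not reported here. The genes and lists were chosen with earlier results of these data known. Positions are from GENCODE M21 on GRCm38. Alternatives changed the pseudocount (0.1), the filter, the scaling, the model and the libraries included, and a split of the libraries by Nppa (10 FPKM) was 1 of the models, and those on gene length and on rows of one name were chosen after seeing the data. The fits were checked on simulated data.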

Additional observations from a re-analysis of the deposited data

How the results depend on the processing

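The count of the 51 genes called in IR against Ctrl was 29 and lay between 21 and 38 over all alternatives, and between 21 and 37 with 1 library left out. Of those 29, 21 kept their call under every alternative run, as did 22 of 42 in Ab_IR against IR, 21 of 42 in L_IR against IR, 3 of 16 in Ab_IR against L_IR (Pfkm, Pgam1 and Slc2a3) and 0 of 4 in L_IR against Ctrl. The 8 calls lost in some runs of IR against Ctrl were those of Dld, Hk3, Ogdh, Pdhb, Pfkl, Slc16a1, Slc2a3 and Suclg1. The genes past 2-fold in Ab_IR against IR went from 4 to 2 with a mean of at least 10 FPKM required, and those in L_IR against IR from 2 to 4 with a pseudocount of 0.1, median ratio scaling, a common sum or the length trend taken out, to 6 with the Nppa split as a term, and to 2 to 4 with 1 library left out (4 without L_IR replicate 1). In Ab_IR against L_IR 16 calls became 6 with all 12 libraries in 1 fit and ranged from 7 to 16 with 1 library left out. Over all genes the calls went from 4628 of 12194 to 2442 of 12699 with all 12 libraries. In Ab_IR against Ctrl 0 calls became 5 with all 12 libraries and 26 with the Nppa term, 3 of them past 2-fold. Over all genes the calls went from 255 of 12134 to 2326 and 7365 of 12699. In L_IR against Ctrl 4 calls became 1 with no filter, 18 with all 12 libraries and 31 with the Nppa term, and ranged from 0 to 13 with 1 library left out. Over all genes the calls went from 1083 of 12251 to 713 of 28876 with no filter. They were 2706 of 12699 with all 12 libraries and 6814 with the Nppa term. Ctrl was the only group with both Nppa levels, so the Nppa term is set by Ctrl replicate 1, the library that stood apart, against the other 2, and every value with it rests on that 1 library. With the Nppa term the direction turned for Hk3 (0.10), Pfkl (0.042) and Tkt (0.045) in Ab_IR against IR and for Mpc2 (0.94), Hk3 (0.16), Pdk3 (0.031), Idh3a (0.069) and Taldo1 (0.53) in L_IR against IR, all log2 differences, and without immunoglobulin genes for Sdha (-0.043) in Ab_IR against IR. The genes turned by the Nppa term read 28.5% to 89.1% of the mean of the other Ctrl libraries in Ctrl replicate 1. For the other alternatives the cause was not tested.

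Equal replicate numbers showed no common pairing of the libraries. In IR against Ctrl same-numbered libraries correlated at 0.0649, 0.00311 and 0.0166 in their deviations from the group means. The values were 0.121, -0.0871 and 0.224 in Ab_IR against Ctrl and -0.267, -0.031 and -0.268 in Ab_IR against L_IR. With the replicate block the counts of calls were 24, 39 and 41 in IR against Ctrl, Ab_IR against IR and L_IR against IR, 7 in Ab_IR against L_IR, and 0 in both comparisons of these groups with Ctrl (Ab_IR, where it was 0 without it, and L_IR, where it was 4).

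Depth is unknown, so small differences, most of those in the TCA cycle among them, rest on 3 libraries a group alone.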
